A study of Mus musculus with 15 samples.

Results

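The cytosolic ribosomal protein genes were followed across aortic valve leaflets of 4 groups of mice. Members were the rows whose symbol is Rpl or Rps followed by a number and at most 1 letter, which gave 77 of the 18073 genes in the table. Of these, 46 are named for proteins of the large subunit and 31 for proteins of the small subunit. They carry 76 symbols, since Rpl41 is listed under 2 identifiers, and 5 rows carry another gene's identifier, as described below. The ribosome joins a small subunit, which reads the mRNA, to a large subunit, which makes the peptide bond and passes the growing chain through an exit tunnel. Its proteins are built into each subunit in fixed proportion, every cell type of the valve needs them, and their mRNAs are among the most abundant in most tissues. Many of these mRNAs begin with a run of pyrimidines, the terminal oligopyrimidine tract, through which mTOR and Larp1 control their translation.

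RNA was taken from 3 leaflets each of 15 C57BL/6 mice aged 2 months. Wild type-long below stands for 4 mice with intact Notch1 and intact Terc, and heterozygous-long for 4 mice that lack 1 copy of Notch1 and have intact Terc. Wild type-short stands for 3 mice and heterozygous-short for 4 mice of the same Notch1 genotypes that are Terc nulls of generation 2, whose telomeres are shortened. Notch1 is a receptor required for aortic valve development, and Terc is the RNA template of telomerase. Neither the nature of the mutant Notch1 allele nor the breeding of the genotypes is stated in the labels. The table holds 1 FPKM value (fragments per unit of transcript length and of library size) per gene and group, so no value below has an error, no difference was tested and none has a replicate check. Read depth per library is unknown. The series title asks how telomere length bears on the loss of 1 copy of Notch1, and the question here is how the transcripts of the ribosome stood under each change alone and under both.

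Several facts of the groups touch every comparison. The row with the identifier of Terc stood at 1.42 and 4.52 FPKM in wild type-long and heterozygous-long valves, and at 0 in the lists of wild type-short and heterozygous-short valves. Notch1 was at 39.1, 25.1, 16.6 and 23.3 FPKM in wild type-long, heterozygous-long, wild type-short and heterozygous-short valves. With short telomeres its order thus went against the genotype labels, and every direction drawn from those groups below follows the labels alone. The valve's interstitial cell markers were all present, with a summed level over 8 genes of 5084, 4289, 7051 and 5410 FPKM in the same order of groups. Dcn weighs most in this sum, at 2692, 2255, 4698 and 3188 FPKM. Of the 8 interstitial markers, 3 were higher and 5 lower in wild type-short than in wild type-long valves, against the order of the sums. The 8 endothelial markers were also present, at 298, 259, 371 and 442 FPKM. The summed FPKM of all genes was 427784, 416875, 583151 and 590290. The 24 mitochondrially encoded genes took 14.4, 10.01, 32.5 and 35.0% of it. Transcripts of blood cells also differed between groups. The summed level of 9 T cell and thymocyte markers was 131, 1246, 177 and 19.7 FPKM, that of 8 platelet markers 3144, 123, 2034 and 403 FPKM, that of 8 neutrophil markers 16.4, 45.4, 1768 and 175 FPKM, and that of 6 erythroid markers 17024, 7453, 28560 and 15767 FPKM. Macrophage markers (7 genes) summed to 513, 620, 374 and 928 FPKM, cardiomyocyte markers (8 genes) to 3387, 4897, 4169 and 6111 FPKM and B cell markers (5 genes) to 20.98, 16.7, 11.8 and 16.8 FPKM. The only markers listed at 0 were 2 of the neutrophil genes, in wild type-long valves. The part of these cell types and of the mitochondrial share in the results below was not tested. In bulk tissue, fewer cells of a type and less RNA per cell cannot be told apart.

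The promoters of some members are shown to set the start-site letters of genes that differed most in the comparisons below side by side. Each line gives 60 bases of RefSeq sequence on GRCm38.p6, from 40 bases before to 20 bases after the annotated start, on the strand of the gene. Capitals mark a pyrimidine tract at the start or the motif CCGGAAG where it lies in the 60 bases shown. Over 300 bases, from 250 before to 50 after the start, Rps6, Rps25, Rpl31, Rps26, Rps18, Rpl15 and Rpl39 hold the motif on either strand. Rps3, Rps9 and Rpl9 do not. Rps3, Rps6, Rps9, Rps25 and Rpl31 were highest in wild type-short valves, Rps26 and Rps18 were lowest there, Rpl9 and Rpl15 were among the members with the largest differences between heterozygous-long and wild type-long valves above 10 FPKM, and Rpl39 was highest in heterozygous-short valves.
Rps3, chr7:99483690-99483749, minus strand: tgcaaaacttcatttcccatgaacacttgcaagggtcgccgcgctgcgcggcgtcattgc
Rps6, chr4:86857348-86857407, minus strand: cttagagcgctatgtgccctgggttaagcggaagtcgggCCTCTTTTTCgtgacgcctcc
Rps9, chr7:3704001-3704060, plus strand: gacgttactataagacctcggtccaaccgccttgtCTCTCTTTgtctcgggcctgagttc
Rps25, chr9:44407674-44407733, plus strand: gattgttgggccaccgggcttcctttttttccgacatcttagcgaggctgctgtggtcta
Rpl31, chr1:39367811-39367870, plus strand: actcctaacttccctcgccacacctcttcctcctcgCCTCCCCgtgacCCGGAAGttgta
Rps26, chr10:128626487-128626546, minus strand: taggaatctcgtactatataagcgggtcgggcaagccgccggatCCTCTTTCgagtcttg
Rps18, chr17:33955646-33955705, minus strand: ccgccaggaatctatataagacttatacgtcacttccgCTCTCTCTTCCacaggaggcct
Rpl15, chr14:18270967-18271026, minus strand: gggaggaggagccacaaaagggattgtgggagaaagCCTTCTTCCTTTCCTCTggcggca
Rpl9, chr5:65391412-65391471, minus strand: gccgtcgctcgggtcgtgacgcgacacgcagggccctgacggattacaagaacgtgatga
Rpl39, chrX:37085203-37085262, minus strand: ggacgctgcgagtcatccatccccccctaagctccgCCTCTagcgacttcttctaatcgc
A tract was counted where a C within 5 bases of the start is followed on the sense strand by at least 4 C or T. By that rule 28 of 64 promoters of 52 member genes held it, 43.8%, against 18.3% of all 32851 promoters of the same length. The motif CCGGAAG, the core of the ETS family's binding sequence, was searched on both strands over 300 bases and lay in 23 of the 64, 35.9%, against 8.86% of all promoters. Its reverse complement, CTTCCGG, holds pyrimidines and can overlap the tract. TATAAA was found in 7.81% of member promoters and 13.6% of all, and CCAAT in 29.7% and 37.4%. These are matches of letters in annotated windows, and nothing in the expression table bears on binding there.

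Ribosomal protein mRNAs were among the abundant transcripts of the valve in every group. The members' median was 188, 272, 256 and 275 FPKM in wild type-long, heterozygous-long, wild type-short and heterozygous-short valves, and 74 of the 77 lay above the upper quartile of all genes in each group. By mean over the 4 groups, which FPKM makes comparable between genes by length, the highest included Rpl31 at 1601 FPKM, Rps24 at 1323, Rps23 at 1302 and Rps25 at 1287 FPKM. The lowest were Rpl39l at 0.418 FPKM, one Rpl41 row at 5.32, Rpl3l at 12.1, Rps13 at 22.8 and the other Rpl41 row at 28.0 FPKM. Of these, Rpl39l and Rpl3l are paralogs, and the Rps13 and Rpl41 rows carry the identifiers of other genes. Among the remaining members the means ran from 61.2 FPKM for Rps19 to 1601 FPKM for Rpl31, although the core proteins enter each ribosome in fixed proportion. The 10 highest members held 39.1, 38.6, 44.1 and 40.7% of the members' summed FPKM in the 4 groups.

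Some of the spread over all rows lies in how rows were assigned. Of the 77 rows, 72 carry the identifier of the same gene in GENCODE M21 and 5 carry another gene's. The Rps13 row (ENSMUSG00000066362) is the identifier of a processed pseudogene there, the Rpl41 rows (ENSMUSG00000060143 and ENSMUSG00000066809) are those of a long noncoding RNA and of another pseudogene, Rps27 is that of its retrogene Rps27rt, and the identifier of Rpl24 is that of the zinc finger gene Zbtb11. The table lists Zbtb11 a second time under its own name at 3.84 to 9.24 FPKM, while the Rpl24 row was at 205 to 348 FPKM. Of the 72, 64 have at least 1 processed pseudogene that matches at least 95% of bases over at least 80% of the coding length, with a median of 5.5 and a maximum of 56, for Rpl21. Reads of these genes could be split or shared between copies, so single values below are uncertain by an amount that the table does not show. Rps3 and Rps27l have none by this rule.

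**Figure D1:**
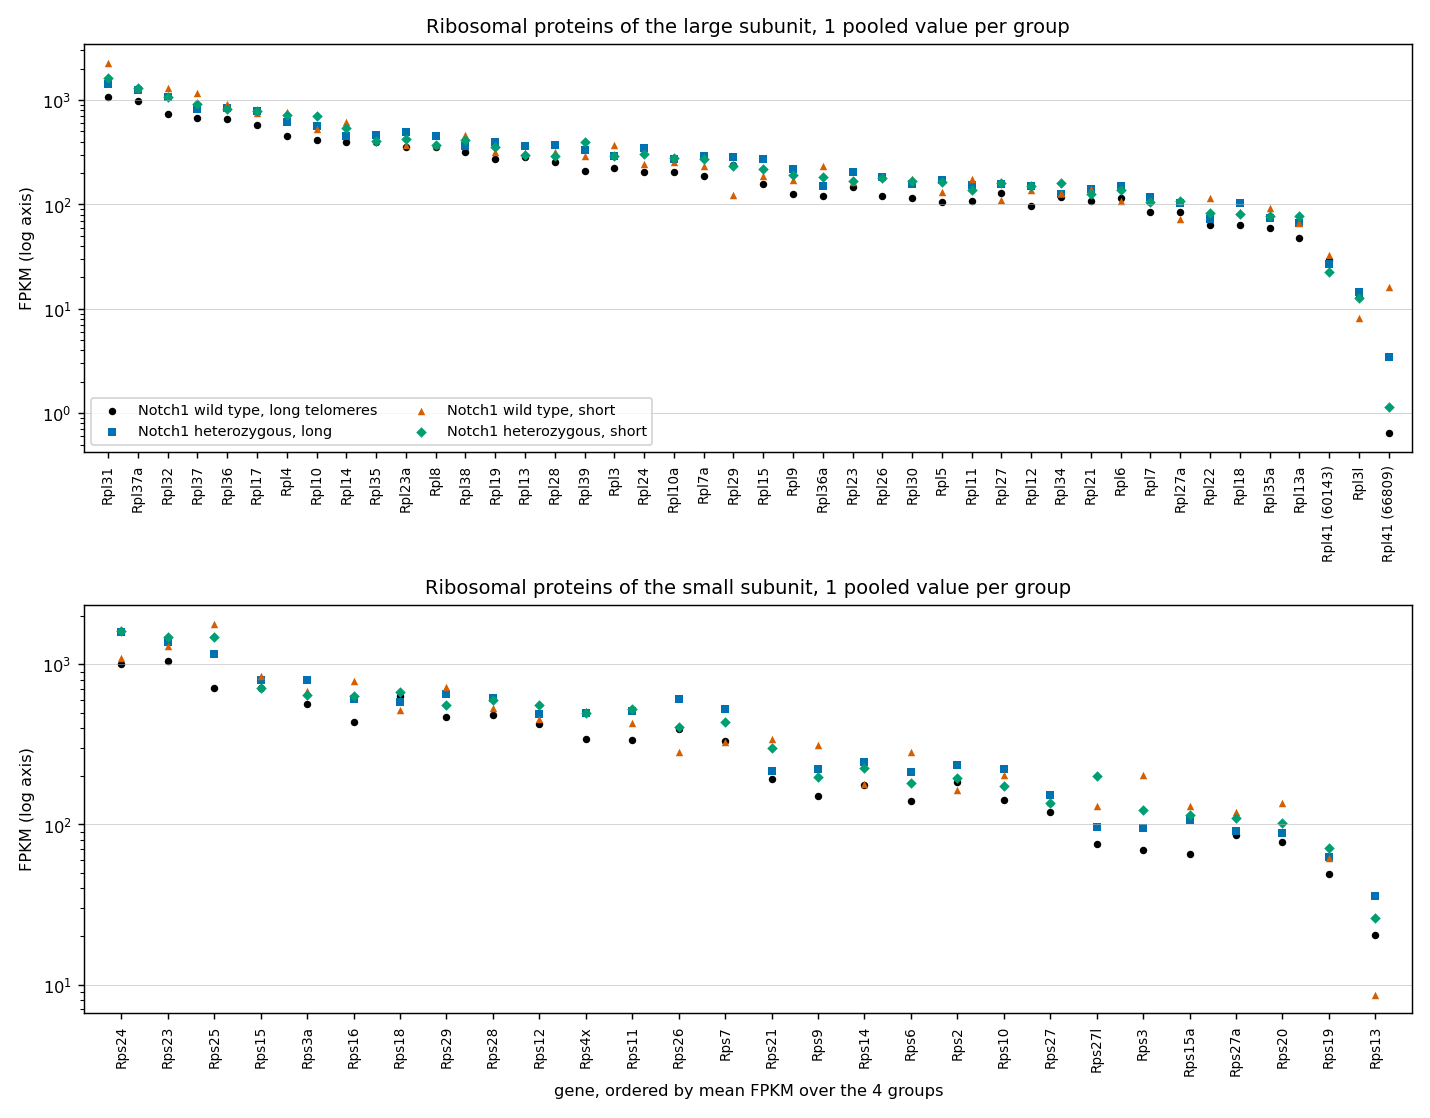
Deposited FPKM (log axis) of each ribosomal protein gene in the 4 groups, 1 pooled value per group and no error, with genes ordered by mean FPKM and the large subunit above the small. Rpl39l, listed at 0 in 1 group, and 4 other members are not drawn, and the wild type-long point is the lowest of the 4 for most genes.

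Wild type-long valves, the group with neither change, held the lowest deposited value of most members. They were lowest for 63 of 77 genes, made of 39 of 46 in the large and 24 of 31 in the small subunit, and highest for 0. Over all genes wild type-long valves were lowest for 21.2%, and over the 1182 other genes with a mean of at least 50 FPKM for 35.4%. Heterozygous-long valves were lowest for 0 members and highest for 29, wild type-short valves lowest for 11 and highest for 32, and heterozygous-short valves lowest for 3 and highest for 16. The 11 lowest in wild type-short valves included Rpl3l, Rpl6, Rpl27, Rpl27a, Rpl29, Rps2, Rps7, Rps13, Rps18 and Rps26, and the 3 lowest in heterozygous-short valves Rpl39l, Rps15 and an Rpl41 row. The count of 63 was 57 with the groups set to the same total without mitochondrial genes and 64 with the same upper quartile. It was 19 with the same total over all genes, where the mitochondrial share enters the scale. Under that scale heterozygous-long valves were highest for 61 members.

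Notch1 heterozygosity with long telomeres went with higher levels of nearly all members. As deposited, 74 of 77 were higher in heterozygous-long than in wild type-long valves, where 55.9% of all genes were higher and 43.6% lower. The median difference was 0.44 on the log2(FPKM + 1) scale, against 0.09 for all genes and 0.06 for the other well expressed genes, and 0.35 relative to all genes. It lay between 0.35 and 0.48 under the 6 scalings tried, all with the same sign. The 3 exceptions were Rpl39l, an Rpl41 row at 29.6 and 27.0 FPKM, and Rps18, a protein of the small subunit's head, at 633 and 582 FPKM. The differences were of like size, with an SD over members of 0.24 around that median. One member passed 2-fold upward and 0 downward, where 10.9% and 7.53% of all genes did. That 1 was the second Rpl41 row, at 0.642 and 3.47 FPKM.

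The members with the largest differences above 10 FPKM were spread over both subunits. Rpl9, of the large subunit, was at 127 FPKM in wild type-long and 221 FPKM in heterozygous-long valves, and Rpl15, a large subunit protein needed for pre-rRNA processing, at 156 and 271 FPKM. These were log2 differences of 0.80 each. Rps13 was at 20.3 and 35.9 FPKM, also 0.80, in a row that carries a pseudogene's identifier. Rps27a, made as a fusion with ubiquitin, was among the smallest, at 86.2 and 90.6 FPKM. None of the members was among the 75 genes, 0.415%, that the authors' deposited table calls different in this comparison. The smallest ratio among genes called there was 4.67-fold, so the table's calls do not speak of differences of the size seen here. In the same pair of groups the 9 T cell and thymocyte markers were all higher, and the 8 platelet and 6 erythroid markers all lower. Of the valve's own cells, the 8 interstitial markers were all lower, with a median of -0.45, and 7 of 8 endothelial markers were lower, while all 8 neutrophil and all 8 cardiomyocyte markers were higher. Their part was not tested.

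**Figure D2:**
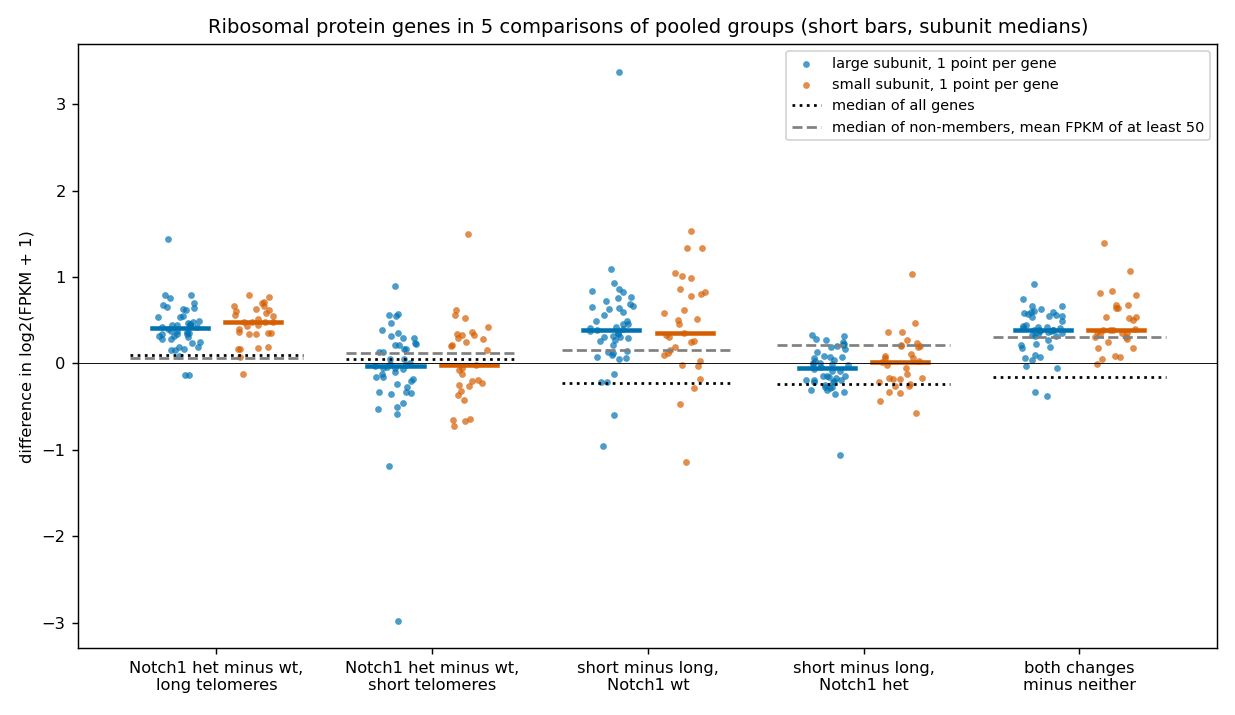
Difference in log2(FPKM + 1) for each ribosomal protein gene (1 point) in the 5 comparisons of pooled groups, large subunit in blue and small in orange, with the subunit median as a short bar and the medians of all genes (dotted) and of other genes with a mean of at least 50 FPKM (dashed). In the long-telomere Notch1 comparison the points lie close together at a median of 0.44, and in both comparisons with wild type-short valves they spread widely.

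With short telomeres the Notch1 genotypes showed no common direction. In heterozygous-short against wild type-short valves 36 members were higher and 41 lower, where 53.5% of all genes were higher and 42.6% lower, and the median was -0.02 as deposited and -0.08 relative to all genes. The sign was not stable, at 0.01 with the same total without mitochondrial genes and 0.08 with the same upper quartile. The spread was wider than with long telomeres, with an SD of 0.53. Rps13 was higher, at 8.67 FPKM in wild type-short and 26.2 FPKM in heterozygous-short valves, and so was Rpl29, a large subunit protein, at 124 and 233 FPKM. Rps3 and Rps9, both of the small subunit, were lower, at 203 and 122 and at 314 and 198 FPKM. Of the 1 member 2-fold higher and the 2 lower, where 12.5% and 10.8% of all genes were, the first was Rps13 and the others were an Rpl41 row and Rpl39l, which was listed at 0 in heterozygous-short valves. None was among the 86 genes, 0.476%, called in the authors' deposited table.

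The contrast between the Notch1 differences at the 2 telomere lengths could only be described. The short-telomere difference minus the long-telomere difference was below 0 for 68 of 77 members, with a median of -0.40, where 49.8% of all genes and 45.2% of the other well expressed genes were below 0. Under 3 other scalings of the groups the members' median was -0.33, -0.25 and -0.46, and 66, 60 and 68 members were below 0. Rps6, the small subunit protein that S6 kinases phosphorylate, had -1.23, with 140, 211, 284 and 182 FPKM in wild type-long, heterozygous-long, wild type-short and heterozygous-short valves. It was thus higher in the heterozygous group with long telomeres and lower in it with short. Rps24 had -0.11, with 1004, 1591, 1092 and 1606 FPKM, and was higher in the heterozygous group at both lengths. The 9 members above 0 were Rps12, Rpl34, Rpl27, Rps27l, Rpl27a, Rpl3l, Rps18, Rpl29 and Rps13. This quantity is built from the 2 Notch1 comparisons above and holds the wild type-long value, which was lowest for 63 members. Low wild type-long values push it below 0, so it is no separate evidence. With 1 value per group no interaction could be tested.

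Short telomeres in Notch1 wild type valves went with higher deposited levels of 66 of 77 members, where 36.6% of all genes were higher and 61.1% lower. The median was 0.39 as deposited, against -0.23 for all genes and 0.16 for the other well expressed genes, and 0.62 relative to all genes. This value hung on the scale of the groups. It was 0.23 relative to the other well expressed genes, with 55 members higher and 22 lower, and 0.28 with the same total without mitochondrial genes, with 60 and 17. With the same total over all genes it was -0.06, with 35 higher and 42 lower. Members differed in size, with an SD of 0.58, in which an Rpl41 row at 3.37 weighs. With matching identifiers the SD was 0.42 in the 27 hosts of small nucleolar RNAs and 0.46 in the other 45, against 1.09 over all genes. Of the 77 members, 7 were 2-fold higher and 1 was 2-fold lower, where 8.9% and 20.9% of all genes were. The 7 included Rps3, Rps25, Rpl31, Rps9, Rps6 and an Rpl41 row that was at 0.642 and 16.0 FPKM. Rps3 (ENSMUSG00000030744), which lies at the mRNA entry site, was at 69.2 FPKM with long and 203 FPKM with short telomeres. Rps25 (ENSMUSG00000009927), known for its part in initiation from viral internal entry sites, was at 707 and 1791 FPKM. The 1 lower was Rps13, at 20.3 and 8.67 FPKM, followed by Rpl29 at 241 and 124 FPKM and Rpl3l at 13.0 and 8.27 FPKM. None was among the 124 genes, 0.686%, called in the authors' deposited table.

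In Notch1 heterozygous valves the direction of the members with telomere length was set by the scale of the groups. As deposited 35 members were higher and 42 lower in heterozygous-short than in heterozygous-long valves, where 34.3% of all genes were higher and 64.9% lower. The median was -0.02 as deposited against -0.24 for all genes, hence 0.22 relative to them. Relative to all genes 62 were higher and 15 lower. Relative to the other well expressed genes, which had a median of 0.22, the members' median was -0.24, with 13 higher and 64 lower. With the same total over all genes it was -0.52, with 1 higher and 76 lower. The SD was 0.28. The only member 2-fold higher was Rps27l, where 4.71% of all genes were, and the only 1 lower an Rpl41 row, where 16.8% were. Rps21, of the small subunit, was at 217 FPKM with long and 300.2 FPKM with short telomeres, and Rps3 at 94.7 and 122 FPKM. Rps26, which contacts the mRNA at the exit site, was at 606 and 407 FPKM, Rps13 at 35.9 and 26.2 FPKM and Rpl28, a large subunit protein, at 369 and 289 FPKM. None was among the 78 genes, 0.432%, called in the authors' deposited table.

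Both changes together against neither gave 72 higher and 5 lower members, where 40.1% of all genes were higher and 58.2% lower. The median was 0.39 as deposited and 0.55 relative to all genes, whose own median was -0.16. The other well expressed genes had a median of 0.31 and 67.8% of them were higher, so that relative to them the members' median was 0.08, with 55 higher and 22 lower. With the same total over all genes it was -0.07, with 29 higher and 48 lower. Rps27l and Rps25 were 2-fold higher, where 7.48% of all genes were, and 0 were 2-fold lower, where 17.2% were. Rps25 was at 707 FPKM with neither and 1490 FPKM with both, and Rpl39 at 210 and 399 FPKM. Rpl29, at 241 and 233 FPKM, and Rpl3l, at 13.0 and 12.7 FPKM, were nearly level, and an Rpl41 row was at 29.6 and 22.5 FPKM. None was among the 95 genes, 0.526%, called in the authors' deposited table. This comparison and the Notch1 and telomere comparisons above share the wild type-long group or the heterozygous-short group, so they do not repeat each other as separate evidence.

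Large and small subunit genes had like medians in all 5 comparisons, and these moved with the scale of the groups as those of the whole family did. The medians as deposited were 0.41 and 0.48 for the Notch1 difference with long telomeres, and -0.02 for each with short. For telomere length they were 0.39 and 0.35 in Notch1 wild type valves and -0.05 and 0.01 in heterozygous valves, and 0.39 for each with both changes. Summed FPKM of the large subunit was 12796, 16839, 18477 and 16917 and of the small 10004, 13762, 13487 and 13806 in wild type-long, heterozygous-long, wild type-short and heterozygous-short valves. Their ratio was 1.28, 1.22, 1.37 and 1.23. The ratio of the subunit medians was 0.89, 0.89, 0.74 and 0.70. The sums run over 46 large and 31 small subunit rows, so the number of rows enters the ratio of sums but not that of medians. Wild type-short valves had the highest ratio of sums, while their ratio of medians was below that of both long-telomere groups.

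The members' share of the summed FPKM depended on whether mitochondrial transcripts were in the total. They took 5.33, 7.34, 5.48 and 5.20% of all summed FPKM, highest in heterozygous-long valves. Without the 24 mitochondrially encoded genes the shares were 6.23, 8.16, 8.12 and 8.004%, and the wild type-long group alone stood below the rest. Mitochondrial transcripts took over 3 times the share in heterozygous-short valves that they took in heterozygous-long valves, as given above.

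**Figure D3:**
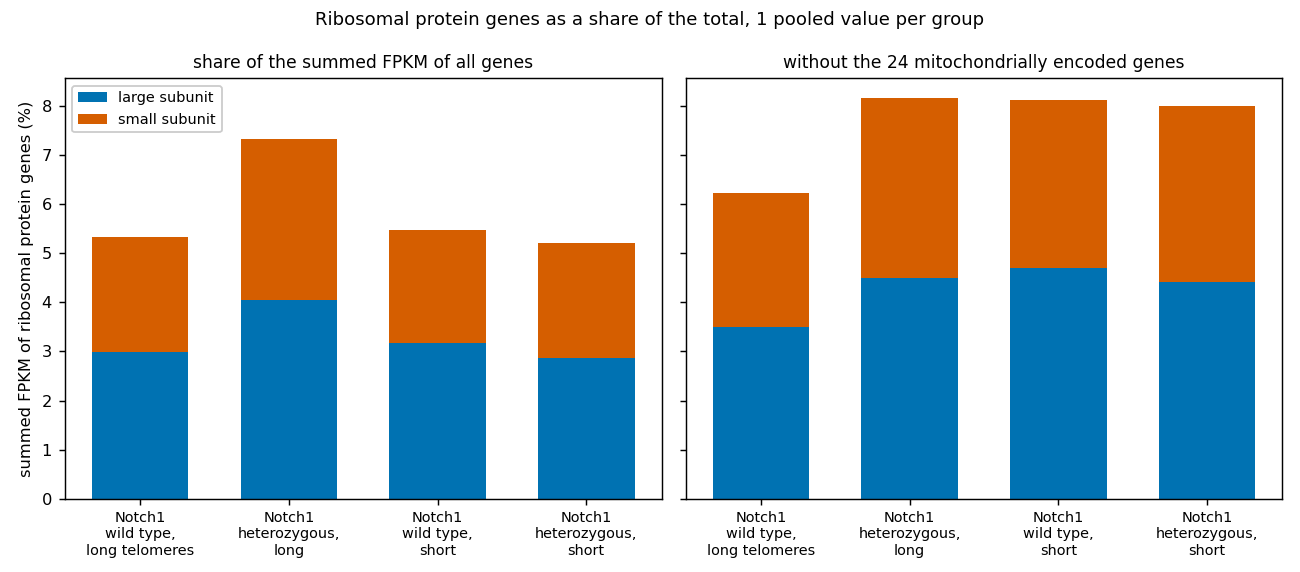
Share of the summed FPKM (%) taken by ribosomal protein genes in each group, large subunit in blue and small in orange, with all genes in the total (left) and without the mitochondrially encoded genes (right), 1 pooled value per group. With all genes the heterozygous-long bar is the tallest at 7.34%, and without mitochondrial genes the wild type-long bar is the shortest at 6.23%.

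Relative levels of the members spread most widely in wild type-short valves. For each of the 75 members with a mean of at least 10 FPKM, log2(FPKM + 1) in a group was set against the mean of the other 3 groups. The SD of these departures was 0.43 in wild type-short valves, against 0.25 in wild type-long, 0.26 in heterozygous-long and 0.20 in heterozygous-short valves. The interquartile ranges were 0.48, 0.28, 0.36 and 0.22. The wider spread was not particular to the members. Among the other well expressed genes the interquartile range was 0.70 in wild type-short valves and 0.60, 0.60 and 0.61 in the other groups, although the SD, at 0.81 against 0.72, 0.89 and 0.83, was not the highest. Among the 18 translation genes described below the SD was 0.51 in wild type-short valves and 0.32, 0.35 and 0.30 in the others, and among 74 genes of the mitochondrial ribosome 0.84 against 0.62, 0.39 and 0.61. Rps3 (1.12), Rpl31 (0.76), Rps25 (0.74) and Rps9 (0.74) were among those that departed furthest upward on the log2 scale. Rpl31, which rings the exit of the tunnel, was at 1068, 1435, 2288 and 1613 FPKM in wild type-long, heterozygous-long, wild type-short and heterozygous-short valves. Rps13 (-1.52), Rpl29 (-1.02), Rps26 (-0.70) and Rpl3l (-0.64) departed furthest downward. Rps26 was at 392, 606, 283 and 407 FPKM and Rpl29 at 241, 288, 124 and 233 FPKM. Wild type-short is the group of 3 mice, and it had the highest neutrophil and erythroid marker levels. Whether the number of mice or these cells have a part in the spread was not tested.

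**Figure D4:**
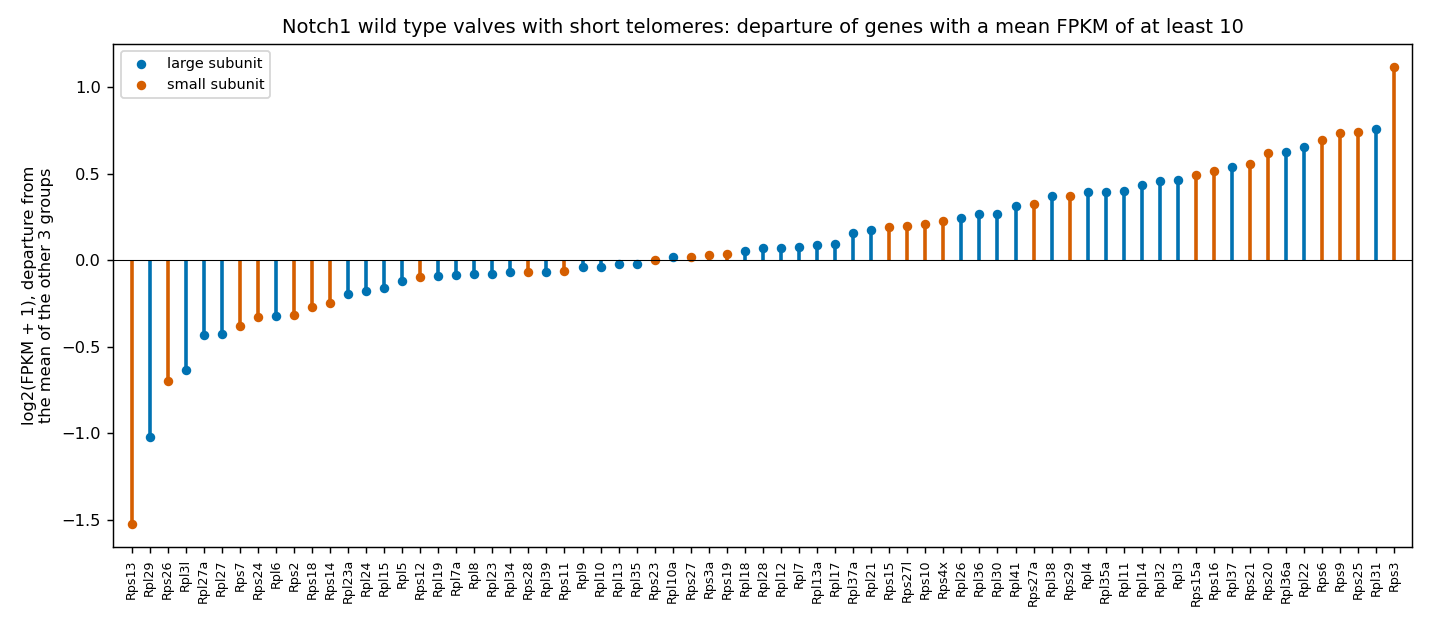
Departure of wild type-short valves from the mean of the other 3 groups, in log2(FPKM + 1), for 71 of the 75 ribosomal protein rows with a mean of at least 10 FPKM, large subunit in blue and small in orange. Departures run from -1.52 for Rps13 to 1.12 for Rps3, and both subunits lie on both sides of 0.

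A chosen list of 12 genes mutated in Diamond-Blackfan anaemia, an inherited failure of red cell production, need not hold every such gene. All 12 were higher in heterozygous-long than in wild type-long valves, with a median of 0.63. So were 74 of all 77 members and 55.9% of all genes, and the count is thus not particular to the 12. The medians of the 12 were 0.22 for the Notch1 difference with short telomeres, 0.42 and -0.12 for telomere length in wild type and heterozygous valves, and 0.45 with both changes. The third and the last turned negative, to -0.02 each, with the same total over all genes, and the fourth reached 0.12 relative to all genes. Rps7, needed to mature the small subunit's RNA, was at 331, 526, 326 and 438 FPKM in the 4 groups. Rps19, the gene most often mutated in the disease, was at 49.0, 62.4, 61.8 and 71.8 FPKM. As deposited, Rps19 was lowest in wild type-long valves, and Rps7 was about level in both wild type groups.

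Rpl5, Rpl11 and Rpl23 bind Mdm2 when they are not built into ribosomes and so restrain its action on p53. They were at 106, 172, 132 and 163 FPKM, at 109, 152, 174 and 137 FPKM and at 148, 203, 163 and 169 FPKM in wild type-long, heterozygous-long, wild type-short and heterozygous-short valves. All 3 were lowest in wild type-long valves as deposited, as were 63 of the 77 members and 21.2% of all genes. This order hung on the scale of the groups. With the same total over all genes their median difference from wild type-long valves turned to -0.13 in wild type-short and -0.14 in heterozygous-short valves. Rpl11 alone of the 3 was highest in wild type-short valves. Mdm2 itself was at 33.0, 43.1, 28.8 and 38.3 FPKM, higher in the heterozygous group at both telomere lengths.

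The 8 large subunit proteins that line or ring the exit tunnel (Rpl4, Rpl17, Rpl19, Rpl23a, Rpl26, Rpl31, Rpl35 and Rpl39) were all higher in heterozygous-long, in wild type-short and in heterozygous-short than in wild type-long valves as deposited. In these comparisons 74, 66 and 72 of all 77 members were higher, and 55.9, 36.6 and 40.1% of all genes. The medians of the 8 were 0.47, 0.42 and 0.51, of which the second turned to -0.02 with the same total over all genes. Rpl39, the small protein within the tunnel wall, was at 210, 330, 289 and 399 FPKM, and Rpl35 was nearly level at 394, 462, 414 and 406 FPKM. The 6 small subunit proteins on the path of the mRNA (Rps2, Rps3, Rps15, Rps23, Rps26 and Rps28) were all higher in heterozygous-long than in wild type-long valves, and 5 of 6 were higher with both changes than with neither. With telomere length they went in different directions. Their medians were 0.38 and 0.17 for the Notch1 difference with long and short telomeres and 0.20 and -0.12 for telomere length in wild type and heterozygous valves. In wild type valves Rps3 differed by 1.54 and Rps26 by -0.47 between short and long telomeres. The third turned to -0.25 with the same total over all genes. Rps2 and Rps15 were at 185, 234, 163 and 195 FPKM and at 711, 801, 842 and 706 FPKM, without a common order.

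The 4 X-linked members were Rps4x, Rpl10, Rpl36a and Rpl39. They were all lowest in wild type-long valves as deposited, as were 63 of the 77 members and 21.2% of all genes. With both changes the median of the 4 was 0.67, or 0.21 with the same total over all genes. Rpl10, which completes the large subunit before it can work, was at 417 and 560 FPKM in the long-telomere groups and at 532 and 699 FPKM in the short-telomere groups. The sex of the mice is not given in the labels used here.

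Of the 72 members with a matching identifier, 27 carry 1 or more of 53 small nucleolar RNAs in their introns, which guide the modification of ribosomal RNA. All 27 were higher in heterozygous-long than in wild type-long valves, and 43 of the other 45, where 55.9% of all genes were. The medians of hosts and others were 0.44 and 0.40. Across the 72 genes, which share libraries and are no replicates, Spearman's rho with transcript GC content was -0.46 for both changes against neither and -0.37 for short against long telomeres in wild type valves. These were the strongest values of all features and measures tried, and both comparisons hold the wild type-long group. For the Notch1 difference with long telomeres rho with GC content was -0.15. It was 0.12 between the number of near-identical pseudogenes and the mean FPKM. Coding length ran from 153 to 1257 bases, with a median of 468.

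The paralogs among the members differed in pattern among themselves. Rps27l (ENSMUSG00000036781), a variant of Rps27 and a known target of p53, was at 75.5 FPKM in wild type-long, 96.8 in heterozygous-long, 130 in wild type-short and 200.2 FPKM in heterozygous-short valves. It had the largest difference of all members between both changes and neither, 1.40. The Rps27 row was at 120, 153, 137 and 135 FPKM. It carries the identifier of the retrogene Rps27rt, so these may not be values of Rps27 itself. Cdkn1a, the p53 target that stops the cell cycle, was at 75.4, 138, 280 and 274 FPKM, and Trp53 at 35.6, 32.8, 44.8 and 20.7 FPKM. Rps27l and Cdkn1a were thus both lowest in wild type-long valves and higher in short-telomere than in long-telomere valves of the same Notch1 genotype, while Mdm2, another p53 target, was not. Rpl3l, the form of Rpl3 known from heart and skeletal muscle, was at 13.0, 14.6, 8.27 and 12.7 FPKM, against 225, 292, 371 and 294 FPKM for Rpl3. The cardiomyocyte markers given above were present in every group. Rpl39l, a form of Rpl39 known from the testis, was at 0.253, 0.141 and 1.28 FPKM and was listed at 0 in heterozygous-short valves.

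Ribosomal proteins whose symbols the name rule leaves out had a smaller median in the long-telomere Notch1 comparison. Of these, 7 were in the table. All 7 were higher in heterozygous-long than in wild type-long valves, where 55.9% of all genes were, with a median of 0.28. Rplp0, which anchors the stalk, was at 193, 268, 252 and 250.2 FPKM, close to the members' pattern, and its partner Rplp1 at 1302, 1354, 1601 and 1630.5 FPKM. Rplp2 was at 215, 262, 304 and 263 FPKM and Gnb2l1, the scaffold also called Rack1, at 72.5, 118, 87.4 and 89.2 FPKM. Rpsa and Fau were not lowest in wild type-long valves, at 523, 598, 479 and 457 FPKM and at 381, 537, 364 and 400 FPKM. Of the paralogs outside the rule, Rpl22l1 was at 147, 190.1, 171 and 184 FPKM, Rpl36al at 68.1, 100.5, 69.8 and 100.7 FPKM and Rps4y2 at 8.08, 14.5, 4.41 and 13.1 FPKM. Rpl7l1 was at 15.1, 13.4, 6.20 and 5.76 FPKM. Rps19bp1, which encodes a binding partner of Rps19 and no ribosomal protein, was at 9.94, 20.3, 8.71 and 7.18 FPKM.

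The wider translation apparatus was taken in for comparison. Among 18 elongation factors, initiation factors and other genes with pyrimidine tracts, 14 were higher in heterozygous-long than in wild type-long valves, with a median of 0.30. In wild type-short valves 12 were higher than in wild type-long valves, with a median of 0.21, or -0.23 with the same total over all genes. Of all genes 55.9% and 36.6% were higher in these comparisons. Eef1a1, which brings the tRNA to the ribosome, was at 834, 1004, 1401 and 1147 FPKM, and Eif3e, an initiation factor subunit, at 63.7, 103, 139 and 142 FPKM. Both were lowest in wild type-long valves as deposited. Pabpc1, which binds the poly(A) tail, was at 222, 178, 409 and 181 FPKM, with its single high value in wild type-short valves. Eef2, the translocation factor, was at 385, 300.3, 466 and 298 FPKM and was lower in heterozygous than in wild type valves at both telomere lengths.

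Most genes that build the ribosome stood lower with short telomeres in heterozygous valves. Of 25 biogenesis genes, 20 were higher in heterozygous-long than in wild type-long valves, where 55.9% of all genes were, with a median of 0.45. Between short and long telomeres in heterozygous valves 24 of the 25 were lower, where 64.9% of all genes were, with a median of -0.55. It was below 0 under all 6 scalings, from -0.97 with the same total over all genes to -0.31 relative to all genes. The members' median in that comparison was -0.02 as deposited, and -0.52 and 0.22 under those scalings. The methyltransferase Fbl was at 27.3, 41.5, 25.2 and 20.8 FPKM in wild type-long, heterozygous-long, wild type-short and heterozygous-short valves, its partner Nop56 at 28.3, 39.0, 25.6 and 15.9 FPKM and Rrp9, which binds the U3 small nucleolar RNA, at 0.889, 5.05, 2.96 and 0.641 FPKM. Dkc1, the pseudouridine synthase that also holds telomerase RNA, was at 9.28, 12.7, 16.2 and 7.10 FPKM, and Nop10 of the same complex at 23.3, 53.3, 63.3 and 52.3 FPKM. Among 12 regulators of ribosomal protein synthesis 6 were higher and 6 lower in heterozygous-long valves, with a median of -0.02. Their median was -0.56 for short against long telomeres in heterozygous valves and -0.68 with both changes, below 0 under all 6 scalings (-1.02 to -0.32 and -1.13 to -0.52). The list mixes genes that promote this synthesis with genes that restrain it, so its median gives no direction of control. With both changes 4 of the 12 were higher, among them Eif4e by 0.87, and 8 lower, among them its inhibitor Eif4ebp1 at -0.96. Of all genes 40.1% were higher there. Larp1 was at 40.7, 41.8, 23.1 and 22.6 FPKM, Mtor at 14.2, 11.5, 14.6 and 7.34 FPKM, and Myc, which drives ribosome production, at 26.6, 24.2, 21.1 and 27.0 FPKM. As deposited, none of these 3 was lowest in wild type-long valves, but Eif4e, another of the 12, was, at 25.8, 40.4, 27.0 and 48.0 FPKM. The 74 genes of the mitochondrial ribosome, encoded in the nucleus, had medians of 0.42 and 0.39 for the Notch1 difference with long and short telomeres and -0.30 and -0.29 for short against long telomeres in wild type and heterozygous valves. The telomere values were close to those of all genes, at -0.07 and -0.05 relative to them, with 37.8% and 29.7% of these genes higher against 36.6% and 34.3% of all genes. The Notch1 values kept their sign under all 6 scalings, from 0.33 to 0.46 and from 0.27 to 0.48.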

How the data were processed

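RNA of microdissected leaflets, treated with collagenase for 20 minutes at 37 °C, was amplified with NuGen Ovation V2 and read as 100 bp pairs, 4 libraries per lane, per the labels' protocols. No source used here gives the lane or date of a library. The submitters' processing notes name FastQC, TopHat, SAMtools, Picard and mm9. Neither quantifier nor calling test is given there.

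Per the file headers, the authors' deposited values are FPKM, 1 for each gene in each group, so mice were pooled or averaged and depth and spread are unknown. The other columns the authors deposited hold 0 or 1 per gene and pair of groups, read as calls. Columns 8 and 9 share a header, and each call column was assigned to the 1 pair whose called genes all passed 4-fold.

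Differences are log2(FPKM + 1), which understates those of low genes, as deposited and relative to the median of all genes. With 1 value per group no test, interval or permutation was possible. Identifiers matched GENCODE M21 (GRCm38) for 16962 of 18073 genes, 93.9%. It differs from mm9 and served for symbols, lengths and pseudogenes (blastn 2.17.0). The members and gene lists were chosen with earlier results of these data known. Named members were the 5 highest and lowest means, the 3 largest and smallest differences per comparison above 10 FPKM, and the role lists. Other names, among them Rps6, Rps12, Eef1a1, Fbl and Dkc1, were chosen after their values were seen. Some members are not reported here by name. The script was checked on simulated data. None of 6 snoRNA host genes without protein was in the table. Software was matplotlib 3.10.9, pandas 2.3.3, numpy 2.4.6 and Python 3.11.15.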

Additional observations from a re-analysis of the deposited data

How the results depend on the processing

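No paired analysis was possible because the table holds 1 pooled value per group and no column carries a replicate number. For the same reason no mouse could be left out. Of 83 alternative values, 51 stayed within 0.1 on the log2 scale or 1.1-fold of the value reported first, 24 moved further and 8 changed sign. The alternatives with the same total over all genes, the well expressed reference and the identifiers were chosen after seeing the data. For the Notch1 difference with long telomeres 0.35 became 0.48 with the same total over all genes. With short telomeres -0.08 became 0.014 (same total without mitochondrial genes) and 0.076 (same upper quartile). For short against long telomeres in wild type valves 0.62 became 0.73 (pseudocount of 0.1), 0.44 (mean of at least 10 FPKM), 0.39 (as deposited), 0.28 (same total without mitochondrial genes), 0.38 (same upper quartile), 0.23 (well expressed reference) and -0.060 (same total over all genes). In heterozygous valves 0.22 became 0.33, 0.061, -0.019, -0.052, -0.24 and -0.52 under the same settings, with the upper quartile value within tolerance. For both changes 0.55 became 0.39 with the mean of at least 10 FPKM and also as deposited, 0.32 (same total without mitochondrial genes), 0.083 (well expressed reference) and -0.073 (same total over all genes). Shares of 5.33, 7.34, 5.48 and 5.20% became 6.23, 8.16, 8.12 and 8.004% without mitochondrial genes. With the proteins outside the name rule the first, second and last became 5.97, 8.11 and 5.74%. Ratios of subunit medians were 0.89, 0.89, 0.74 and 0.70 in place of 1.28, 1.22, 1.37 and 1.23. The shift of the median of all genes, between -0.24 and 0.09, and the mitochondrial share moved with these settings, and the cause of the changes beyond the scale itself was not tested. Leaving out paralogs or rows with another gene's identifier moved none of the 5 medians by over 0.1. Depth is unknown, so no limit of detection can be given.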
